A study of Homo sapiens with 8 samples.

Results

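Proteasome subunits and the genes named like them were described in SH-SY5Y, a human neuroblastoma cell line labelled neuronal progenitor. All protein-coding genes whose symbol begins with PSMA to PSMG followed by a digit were taken, which gave 50 of the 67060 genes counted. The ERRg group, of 4 libraries, received an adenovirus carrying BioID, a biotin ligase used to tag neighbouring proteins, fused to Flag-tagged ERRg, the estrogen-related receptor gamma that ESRRG encodes. The GFP group, also of 4 libraries, received the same kind of virus with BioID fused to green fluorescent protein carrying a nuclear localisation signal. All 8 samples of this single line were virus-treated at 80% confluence with 0.5 ul, and RNA was taken 48 h later, so all carry BioID and none is untreated. The comparison asks how expression of BioID-ERRg changed the transcripts of these cells. Whether libraries came from separate cultures is not in the labels, and the p-values cover the spread among these 8 libraries alone, part of which may be technical.

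The proteasome degrades proteins tagged with ubiquitin. Its 20S core is a barrel of outer alpha rings, which gate entry, and inner beta rings, which hold the protease sites. The 19S cap recognises ubiquitin, removes it and unfolds the substrate with a ring of ATPases, while other activators can dock in its place and dedicated chaperones guide assembly. Cells raise the genes of the complex together through NFE2L1, a transcription factor that binds antioxidant response elements when proteasome capacity falls short. ERRg is an orphan nuclear receptor known for driving genes of mitochondrial energy metabolism, and binds its own response element.

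By class, the 50 genes comprised 8 of the alpha ring (PSMA), 11 of the beta ring (PSMB), 6 ATPases of the 19S cap (PSMC), 11 other 19S subunits (PSMD), 5 activators and inhibitors (PSME, PSMF1) and 7 assembly chaperones (PSMG, PSMD5, PSMD9 and PSMD10). The remaining 2, PSMC3IP and PSME3IP1, match by symbol and are not subunits. Positions below are on GRCh38. Low-count filtering left 42 for testing. The other 8 had at most 1 read in any library.

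Promoters of 44 of the 50 genes were found in RefSeq (GRCh38.p14) as windows of 250 bases before a start of transcription. Some genes have several starts, and a gene was counted for a motif if any of its windows held it. Of these 44 genes, PSMC3IP alone held the letters TCAAGGTCA, the element that estrogen-related receptors bind, on either strand (2.27%). Among all 27305 genes with a window the share was 0.388%. TGACNNNGC, the core of the antioxidant response element, was present in 13 of 44 (29.5%) and in 13.2% of all genes. CCAAT, the CCAAT box, was present in 21 of 44 (47.7%) and in 37.0% of all genes. No matches overlap in the sequences printed here. Among members with a window, the antioxidant core was present in 1 of 6 that were higher in ERRg and in 6 of 22 that were lower, and the CCAAT box in 4 of 6 and 11 of 22. A match of letters is a description of sequence and not a binding site. The following 4 windows are printed 5′ to 3′ on the gene's strand because they show each of these motifs in genes that the results return to, with matches on either strand in capitals. PSMB5 (chr14:23035221-23035470, minus strand) has a CCAAT box that ends 159 bases before the start. PSMD3 (chr17:39980557-39980806, plus strand) has a reversed CCAAT box and an antioxidant element core, which ends 28 bases before the start. PSME4 (chr2:53970994-53971243, minus strand) has the core on the other strand, 25 bases before the start. PSMC3IP (chr17:42577832-42578081, minus strand) has a CCAAT box and the estrogen-related receptor element, which ends 179 bases before the start. Another window of PSMC3IP (chr17:42577730-42577979) lacks that element, and another window of PSMB5 (chr14:23034901-23035150) lacks the CCAAT box.
PSMB5: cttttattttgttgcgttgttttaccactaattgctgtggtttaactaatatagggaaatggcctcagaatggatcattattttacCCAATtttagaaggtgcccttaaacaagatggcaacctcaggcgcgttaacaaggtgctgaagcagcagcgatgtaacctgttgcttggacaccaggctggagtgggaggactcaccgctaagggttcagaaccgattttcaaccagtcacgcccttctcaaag
PSMD3: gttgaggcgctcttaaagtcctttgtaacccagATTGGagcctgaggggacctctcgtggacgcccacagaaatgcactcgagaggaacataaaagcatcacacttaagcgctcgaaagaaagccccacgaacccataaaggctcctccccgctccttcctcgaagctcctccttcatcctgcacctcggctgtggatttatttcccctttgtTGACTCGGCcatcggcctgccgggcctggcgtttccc
PSME4: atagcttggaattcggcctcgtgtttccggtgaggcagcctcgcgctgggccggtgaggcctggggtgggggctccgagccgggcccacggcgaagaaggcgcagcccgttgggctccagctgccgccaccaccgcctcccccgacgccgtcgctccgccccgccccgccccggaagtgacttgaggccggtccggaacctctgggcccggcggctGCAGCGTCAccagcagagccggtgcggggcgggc
PSMC3IP: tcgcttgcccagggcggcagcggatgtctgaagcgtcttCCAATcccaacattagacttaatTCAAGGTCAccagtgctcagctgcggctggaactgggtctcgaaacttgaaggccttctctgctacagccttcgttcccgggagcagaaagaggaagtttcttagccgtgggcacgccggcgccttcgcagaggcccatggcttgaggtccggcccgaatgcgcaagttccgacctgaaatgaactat

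The libraries held 21.0 to 23.0 M reads assigned to genes in ERRg and 27.7 to 35.5 M in GFP. ESRRG averaged 808 ± 73.2 CPM in ERRg, against 34.9 ± 2.34 CPM in GFP (mean ± SD of 4 libraries; CPM, counts per M gene reads with TMM scaling), with no overlap and an exact permutation p of 0.0286 (two-sided), which is the floor of this design. Reads outside annotated exons made up 46.7% ± 1.31 of reads in ERRg, against 20.9% ± 3.58 in GFP (mean ± SD of 4 libraries). ERRg replicates 1 and 2 were close to each other, as were replicates 3 and 4, with chi-squares of counts per gene (lower is closer) of 2.90 and 5.02, against 9.87 to 22.4 across these pairs. GFP replicate 2 had the lowest share of reads outside exons, 16.2%. Of 8 adrenergic neuroblastoma markers, 6 were above 1 CPM in both groups and TH and CHGA were at 0. Of 5 neural progenitor markers, 4 were, and PAX6 was near 0. The 6 fibroblast or stroma markers summed to 861 to 955 CPM in ERRg and 1552 to 1730 CPM in GFP, and 4 markers of other lineages to at most 3.17 CPM in ERRg and 2.53 CPM in GFP, with ALB at 0. The part of these differences in the results below was not tested. In bulk RNA, fewer cells of a type and less RNA per cell cannot be told apart.

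Transcripts of most proteasome subunits made up a smaller part of the TMM-scaled reads in cells expressing BioID-ERRg. Of the 42 genes tested, 28 were lower and 6 higher in ERRg at an adjusted p under 0.05, while 8 passed in neither direction. Across all 21993 genes tested the shares were 35.9% lower and 38.8% higher, and among the 13433 coding genes with annotation 50.6% lower and 29% higher. The median log2 fold change (ERRg over GFP) was -0.58 for the 42 genes, -0.30 for coding genes and 0.09 for all genes. With upper-quartile factors or library totals in place of TMM, the median of all genes shifted by 0.30 and 0.40, and the list then had 12 higher and 22 lower, or 13 higher and 20 lower. Against the median coding gene, 27 of 42 lay below under TMM and between 26 and 33 under the alternatives run. All ERRg libraries lay below all GFP libraries for 28 of the 42 genes and above for 6, where all genes gave 34.6% and 33.9%. All genes include 8560 outside the coding set, of which 12.9% were called lower and 54.2% higher. The share without overlap was not computed for coding genes alone.

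Fold changes also followed base composition, and a fit with per-library offsets for GC content, transcript length and gene span was run beside TMM for the coding genes. It called 27 members lower and 6 higher, against 41.5% lower and 30.4% higher among 13426 coding genes. The median member was then at -0.26 and the median coding gene at -0.07. A fit with the GC offset alone, chosen after seeing the data, called 31 members lower and 4 higher. Of the 13426 coding genes it called 5470 lower and 4280 higher. Elsewhere, the offsets means those for GC content, length and span together. Members lower both under TMM and with the offsets numbered 22, and members higher in both numbered 3, PSMA2, PSMC6 and PSME4. With the GC offset alone PSMA2 and PSME4 were higher (0.53 and 0.31) and PSMC6 was not called (0.15). PSMD14 was higher under TMM and lower with offsets, and PSMB10 was lower under TMM and higher with offsets. Offsets make the typical fold change flat across GC content, so they also take out any real change that goes with it.

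**Figure D1:**
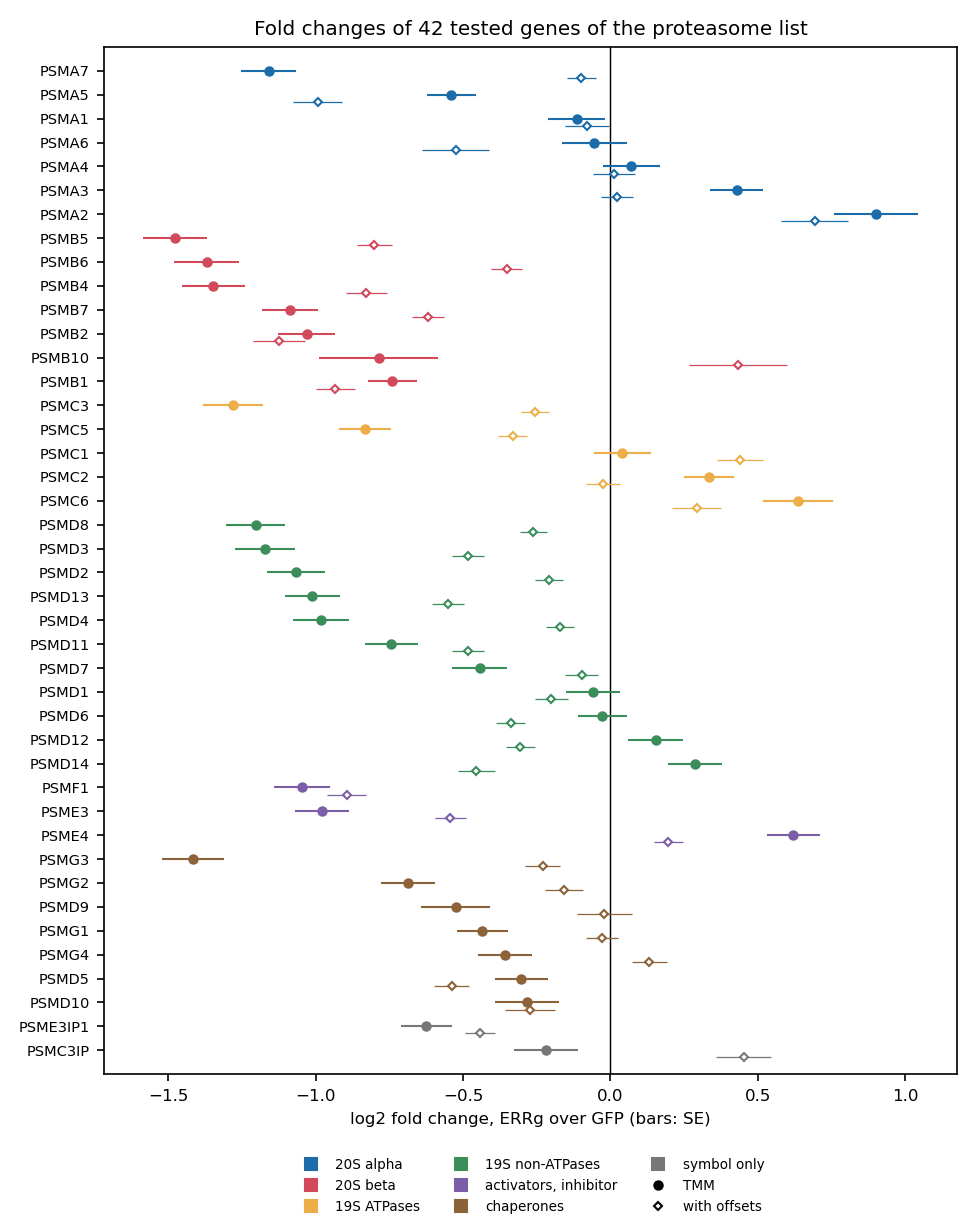
Log2 fold change (ERRg over GFP, horizontal axis, bars SE) of the 42 tested genes, grouped by class in colour, under TMM (filled circles) and in the offset fit (open diamonds). The 7 beta-ring genes lie between -1.48 and -0.74 under TMM, while the alpha ring spreads from -1.16 to 0.90.

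Counts by class are read here and below against the shares of coding genes. Those shares were 50.6% lower and 29% higher under TMM, and 41.5% lower and 30.4% higher with the offsets. The beta ring gave the lowest values. All 7 tested members were lower in ERRg under TMM, with a median log2 fold change of -1.09, and all 7 kept a negative value under each scaling alternative run (upper-quartile factors, library totals, DESeq2 size factors and coding genes alone). With the offsets, 6 of 7 were lower and PSMB10 was higher. Summed over the class, the level was 847 ± 98.9 CPM in ERRg, against 1934 ± 186 CPM in GFP (mean ± SD of 4 libraries), a ratio of 0.438.

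PSMB5 (ENSG00000100804.19, chr14:23016543-23035230), which carries the chymotrypsin-like site that bortezomib blocks, had 105, 101, 136 and 120.1 CPM in ERRg libraries 1 to 4, against 299, 383, 296 and 308 CPM in GFP libraries 1 to 4. The highest ERRg library stayed far under the lowest GFP library, and GFP replicate 2 stood above the other GFP libraries. The log2 fold change of -1.48 (SE 0.11, edgeR adjusted p = 3.08e-10) was the lowest of the 42, and it was -0.80 with the offsets. PSMB6 (chr17:4796144-4798503), the caspase-like subunit, had 58.7, 62.8, 80.8 and 73.0 CPM in ERRg and 165, 213, 165 and 169 CPM in GFP. The groups were again well apart, at a log2 fold change of -1.37 (SE 0.11, edgeR adjusted p = 8.86e-10). PSMB7 (chr9:124353466-124415444), the trypsin-like subunit, had 142, 136, 170.2 and 157 CPM in ERRg and 310.2, 364, 307 and 305 CPM in GFP. It too was without overlap, with a log2 fold change of -1.09 (SE 0.10, edgeR adjusted p = 2.65e-09). The 3 catalytic subunits of the standard core were also called lower with the offsets (-0.35 for PSMB6 and -0.62 for PSMB7).

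PSMB4 (chr1:151399534-151401944), a structural beta subunit and the most abundant member per kb, had 208, 202, 273 and 243 CPM in ERRg and 568, 686, 551 and 552 CPM in GFP. No ERRg library came near the GFP range. The difference came to a log2 fold change of -1.35 (SE 0.11, edgeR adjusted p = 7.67e-10). PSMB1, a structural subunit with the smallest fold change of the ring, had 121, 125, 137 and 135 CPM in ERRg and 213, 222, 221 and 209.9 CPM in GFP. GFP values were tight and lay above every ERRg value (log2 fold change -0.74, SE 0.08, edgeR adjusted p = 8.91e-08). PSMB1 and PSMB2, the members of the ring with the lowest GC content (40.7% and 43.6%), moved further down with the offsets, to -0.93 and -1.13, whereas the other beta genes moved up. PSMB2, also structural, was at -1.03 (SE 0.10) under TMM.

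The inducible catalytic subunits, which replace the standard ones in immunoproteasomes, gave few reads. PSMB8 and PSMB9 were listed at 0 in all 8 libraries, which was not read as absence of their RNA. PSMB10, the counterpart of PSMB7, had 1.89, 1.80, 3.49 and 3.70 CPM in ERRg and 4.21, 4.66, 4.97 and 4.90 CPM in GFP. ERRg replicates 3 and 4 lay nearer the GFP range than replicates 1 and 2, without reaching it. PSMB10 was at a log2 fold change of -0.79 (SE 0.20, edgeR adjusted p = 0.00157) under TMM and at 0.43 (SE 0.17, edgeR adjusted p = 0.0268) with the offsets, so its direction depends on that choice. Without ERRg replicates 1 and 2 it was not called (-0.40). In GENCODE 29, 34.8% of the exon bases of PSMB10 are shared on the same strand with another gene, where a read may count as ambiguous. PSMB11, the thymus form, had 1 read in all, as had PSMB3, a structural subunit of every core, whose low count was therefore not read as absence.

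The alpha ring was mixed. Of 7 tested members, 2 were lower (PSMA5 and PSMA7), 2 higher (PSMA2 and PSMA3) and 3 not called, with a median of -0.05 that turned positive under upper-quartile factors, library totals, coding genes alone and a filter of 1 CPM in 4 libraries. The summed level was 499.5 ± 7.19 CPM in ERRg, against 681 ± 11.4 CPM in GFP (mean ± SD of 4 libraries), a ratio of 0.734. Beta and alpha subunits enter the core in equal number. The ratio of their summed CPM was 1.54 to 1.91 in ERRg libraries and 2.699 to 3.20 in GFP libraries, without overlap. These sums are not divided by length, carry no offsets, include the inducible PSMB10 and hold almost no reads of PSMB3. The ratio therefore does not measure the balance of subunits.

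PSMA7 (ENSG00000101182.15, chr20:62136735-62143440) had 135, 132, 161 and 144 CPM in ERRg, against 312, 356, 313 and 296 CPM in GFP. Every ERRg library held fewer than any GFP library. Under TMM the fold change on the log2 scale was -1.16 (SE 0.09, edgeR adjusted p = 7.75e-10), and it was -0.10 with the offsets (edgeR adjusted p = 0.0743), where it was not called. With the GC offset alone PSMA7 was called lower (-0.37, edgeR adjusted p = 2.92e-06). PSMA5, an AT-rich member, had 78.4, 82.8, 89.3 and 84.7 CPM in ERRg and 122, 122, 127 and 116 CPM in GFP. The libraries of each group were close together and the groups apart. The log2 fold change of -0.54 (SE 0.08, edgeR adjusted p = 6.88e-06) became -0.99 with the offsets. PSMA2 had 9.83, 8.94, 7.63 and 7.89 CPM in ERRg and 5.07, 3.48, 5.00 and 4.82 CPM in GFP. ERRg lay above GFP in all libraries, at low levels for a core subunit. At 0.90 its log2 fold change (SE 0.14, edgeR adjusted p = 9.59e-06) was the highest of the 42, and it stood at 0.69 with the offsets. PSMA3 was higher at 0.43 (SE 0.09, edgeR adjusted p = 0.000243) and not called with the offsets (0.02); its antisense gene PSMA3-AS1 was also higher, and without a known strand setting their reads cannot be told apart. PSMA1, PSMA4 and PSMA6 had log2 fold changes of -0.11, 0.07 and -0.05, with SE of 0.10, 0.10 and 0.11, and their groups overlapped. PSMA1, PSMA2 and PSMA6 share 24.7%, 14.6% and 14.1% of their exon bases with other annotated coding genes on the same strand, so their counts rest on the remaining bases and their low levels are uncertain. PSMA8, the testis form, had 1 read in all.

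**Figure D2:**
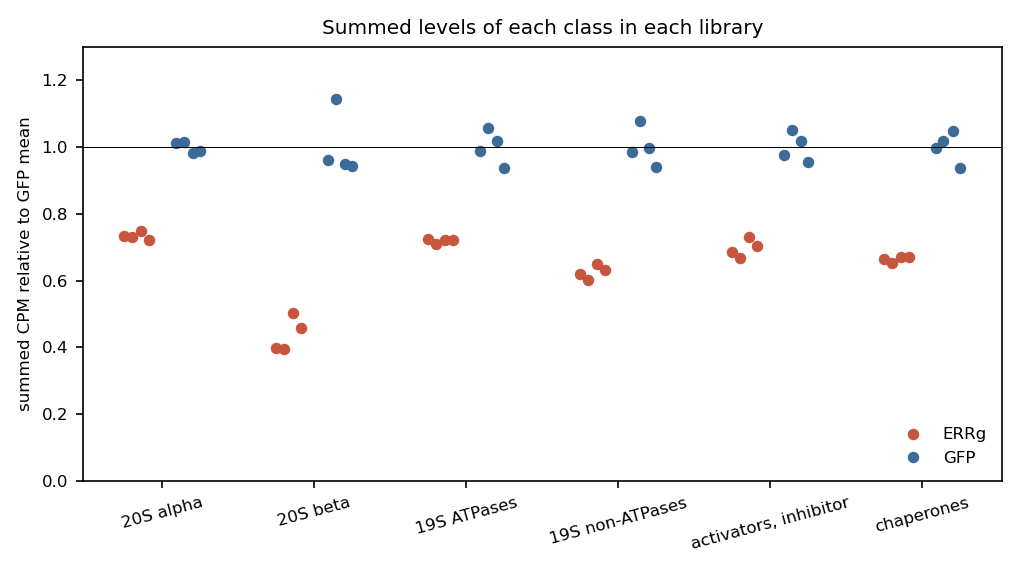
Summed CPM of each class in each library, divided by the mean of the 4 GFP libraries, with ERRg points left of GFP points. The beta ring stands lowest in ERRg, at a ratio of 0.438, while the alpha ring is at 0.734 and the ATPases at 0.720.

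The 6 ATPases, which form the ring that pulls substrates into the core, divided. PSMC3 and PSMC5 were lower, PSMC2 and PSMC6 higher and PSMC1 not called, and the same signs held under the scaling alternatives run. PSMC4 was the one ATPase not tested, with 1 read in all. Each cap needs all 6, and that count was not read as absence either. The summed level of the class was 540.2 ± 4.85 CPM in ERRg, against 750 ± 37.9 CPM in GFP (mean ± SD of 4 libraries), a ratio of 0.720.

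PSMC3 (ENSG00000165916.8, chr11:47418769-47426473) had 105, 102, 131 and 118 CPM in ERRg, against 268, 320.1, 269 and 249.8 CPM in GFP. Even the highest ERRg library was well short of the lowest GFP library. PSMC3 thus had a log2 fold change of -1.28 (SE 0.10, edgeR adjusted p = 6.91e-10), and of -0.26 with the offsets. PSMC5 had 128, 131, 140.5 and 139.5 CPM in ERRg and 237, 263, 247 and 214 CPM in GFP. Its groups were apart, with little spread inside ERRg (log2 fold change -0.83, SE 0.09, edgeR adjusted p = 3.79e-08). PSMC6 (ENSG00000100519.12, chr14:52707172-52728587) had 82.6, 79.8, 63.7 and 68.4 CPM in ERRg and 47.6, 39.7, 42.4 and 59.8 CPM in GFP. Here ERRg was the higher group, though its lowest library and GFP replicate 4 were only a few CPM apart. TMM gave a log2 fold change of 0.64 (SE 0.12, edgeR adjusted p = 6.20e-05), and the offsets gave 0.29 (edgeR adjusted p = 0.00391). With the GC offset alone PSMC6 was not called (0.15, edgeR adjusted p = 0.107). PSMC2 was higher by 0.34 (SE 0.09, edgeR adjusted p = 0.00142) and not called with the offsets. PSMC1 was at 0.04 (SE 0.10) with overlapping groups, but higher with the offsets (0.44, edgeR adjusted p = 6.19e-05).

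Among the 11 non-ATPase subunits of the cap, 7 were lower and 1, PSMD14, was higher, where coding genes were 50.6% lower and 29% higher. The lower ones were PSMD2 and PSMD4, ubiquitin receptors, and PSMD3, PSMD7, PSMD8, PSMD11 and PSMD13, which belong to the lid. PSMD2, PSMD13 and PSMD4 were at log2 fold changes of -1.07, -1.01 and -0.98, and PSMD11 and PSMD7 at -0.74 and -0.44. The median was -0.74, and 7 to 11 of the 11 had negative values across the alternatives run. With offsets 10 were lower and none higher, PSMD7 being the exception at -0.10 (edgeR adjusted p = 0.131). Coding genes were then 41.5% lower and 30.4% higher. With the GC offset alone PSMD7 was called lower (-0.36, edgeR adjusted p = 4.03e-05).

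PSMD8 (ENSG00000099341.11, chr19:38374536-38383824) had 112, 106, 141 and 128 CPM in ERRg, against 279, 318, 256 and 270.0 CPM in GFP. The groups were separate, ERRg replicates 3 and 4 lying above replicates 1 and 2. This was a log2 fold change of -1.20 (SE 0.10, edgeR adjusted p = 1.55e-09) and -0.26 with the offsets. PSMD3, whose promoter is printed above, had 113, 109, 147 and 136 CPM in ERRg and 283, 314, 262 and 278 CPM in GFP. It showed the same order of libraries (log2 fold change -1.17, SE 0.10, edgeR adjusted p = 2.51e-09). PSMD14 (ENSG00000115233.12, chr2:161308038-161411717), the metalloprotease that cuts ubiquitin chains off substrates, had 130.2, 129, 103 and 115 CPM in ERRg and 97.6, 91.0, 101 and 101 CPM in GFP. ERRg was higher without overlap, although replicate 3 exceeded the top GFP libraries by little. TMM put it at 0.29 on the log2 scale (SE 0.09, edgeR adjusted p = 0.00808), but it was at -0.45 (SE 0.06, edgeR adjusted p = 3.46e-06) with the offsets. The TMM call was lost when any single GFP library was left out (0.20 to 0.24) and without ERRg replicates 1 and 2 (0.14). PSMD14 has the lowest GC content of the 42, 32.0%. PSMD1, the large scaffold of the base, PSMD6 and PSMD12 had TMM log2 fold changes of -0.06, -0.03 and 0.15 that were not called, and all 3 were called lower with the offsets.

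**Figure D3:**
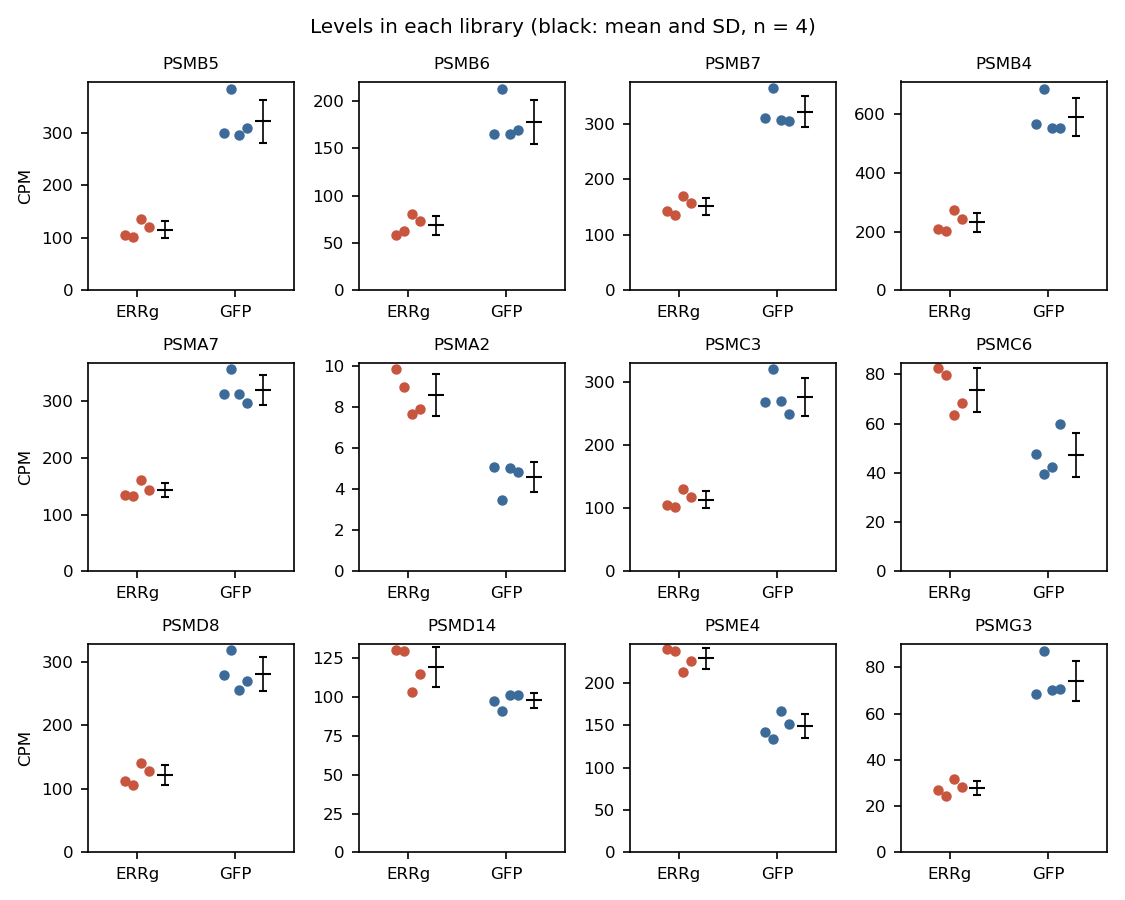
CPM of 12 members in each of the 4 ERRg (left) and 4 GFP (right) libraries, with mean and SD in black; every axis starts at 0. PSMB5, PSMB6, PSMB7, PSMB4, PSMA7, PSMC3, PSMD8 and PSMG3 are lower in each ERRg library than in any GFP library, and PSMA2, PSMC6, PSMD14 and PSME4 are higher.

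The activators moved in opposite directions. PSME3, a nuclear activator that opens the core without ubiquitin, had 239, 229.6, 287 and 260.0 CPM in ERRg, against 491, 540.1, 499 and 472 CPM in GFP. ERRg libraries all lay below (log2 fold change -0.98, SE 0.09, edgeR adjusted p = 7.11e-09). PSMF1, which binds the core and inhibits it in vitro, had 65.7, 63.0, 80.3 and 73.0 CPM in ERRg and 142, 160.1, 143 and 137 CPM in GFP. It too was lower in each ERRg library (log2 fold change -1.05, SE 0.09, edgeR adjusted p = 4.13e-09), and the offsets left it at -0.90. PSME4 (ENSG00000068878.15, chr2:53864067-53970840), a large nuclear activator linked to histone turnover, had 239, 237, 213 and 226 CPM in ERRg and 142, 134, 167 and 152 CPM in GFP. All ERRg values were above all GFP values. PSME4 was at a log2 fold change of 0.62 (SE 0.09, edgeR adjusted p = 2.96e-06) under TMM and at 0.20 (edgeR adjusted p = 0.00125) with the offsets. PSME1 and PSME2, subunits of the interferon-inducible activator, were listed at 0 throughout, which was not read as absence.

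All 7 assembly chaperones were lower under TMM, though the values of PSMD5 and PSMD10 turned positive under upper-quartile factors, library totals and coding genes alone, and that of PSMG4 under library totals. With the offsets 4 were lower (PSMG2, PSMG3, PSMD5 and PSMD10). Among coding genes 50.6% were lower under TMM and 41.5% with the offsets. With the GC offset alone PSMG1 was lower (-0.28), PSMG2 was not called (-0.11) and PSMG4 was higher (0.24). PSMG3 (ENSG00000157778.9, chr7:1567330-1571005), which acts with PSMG4 in building the alpha ring, had 27.0, 24.2, 31.6 and 28.4 CPM in ERRg, against 68.6, 87.2, 70.5 and 70.6 CPM in GFP. It was far lower in ERRg, and GFP replicate 2 was again the top library. That is a log2 fold change of -1.42 (SE 0.10, edgeR adjusted p = 3.02e-10) under TMM and -0.23 with the offsets. PSMG3-AS1, which overlaps PSMG3 on the other strand, was also lower under TMM (-1.32), and without a known strand setting their reads cannot be told apart. PSMG2, partner of PSMG1 in the same process, had 21.2, 19.9, 20.7 and 23.6 CPM in ERRg and 33.6, 35.6, 35.0 and 33.2 CPM in GFP. The groups were tight and separate (log2 fold change -0.69, SE 0.09, edgeR adjusted p = 1.02e-06). PSMD10, a chaperone of the ATPase ring also known as gankyrin, had 18.6, 21.1, 17.6 and 20.8 CPM in ERRg and 23.4, 20.1, 27.7 and 23.7 CPM in GFP. ERRg replicates 2 and 4 exceeded GFP replicate 2, so the groups overlapped, at a log2 fold change of -0.28 (SE 0.11, edgeR adjusted p = 0.0233). PSMG1, PSMG4, PSMD5 and PSMD9 had TMM log2 fold changes of -0.44, -0.36, -0.30 and -0.52, without overlap between groups. PSMD9, a chaperone of the ATPase ring like PSMD5, shares 19.9% of its exon bases with other coding genes on its strand.

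The pair matched by symbol did not move alike. PSME3IP1, which binds PSME3, had 92.2, 93.2, 96.0 and 93.1 CPM in ERRg, against 146, 154, 150.4 and 127 CPM in GFP. ERRg was lower, with hardly any spread (log2 fold change -0.62, SE 0.09, edgeR adjusted p = 1.59e-06). PSMC3IP, a meiotic recombination factor with the estrogen-related receptor element in a promoter window, had 9.59, 10.1, 10.5 and 9.92 CPM in ERRg and 11.1, 11.7, 10.8 and 13.2 CPM in GFP. Its groups were separate by a small margin and it was not called (-0.22, SE 0.11, edgeR adjusted p = 0.0728), while with the offsets it was higher (0.45, edgeR adjusted p = 0.000302). DESeq2's Wald test called it lower (-0.25). Without this pair, 27 of 40 tested genes were lower and 6 higher.

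Among the 34 called members, ERRg replicates 3 and 4 both lay closer to the GFP mean than replicates 1 and 2 in 25, and both farther from it in 1, PSMD5. This order was not counted over all genes. Across all genes, too, replicates 1 and 2 were close to each other, as were 3 and 4. The order is therefore not shown to be particular to these members. Without ERRg replicates 1 and 2 the list had 5 higher and 27 lower, and without replicates 3 and 4 it had 7 higher and 28 lower. Without GFP replicate 2, the library highest in most beta-ring genes, it had 5 higher and 29 lower. Summed over all 50 genes the level was 4652 ± 190.2 CPM in ERRg, against 7667 ± 441 CPM in GFP (mean ± SD of 4 libraries), a ratio of 0.607. As a share of gene reads without TMM it was 0.534% ± 0.0175 in ERRg and 0.665% ± 0.0199 in GFP, a ratio of 0.803.

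Per kb of annotated exon, the order of members was wide within each class although the standard subunits of a ring enter the complex in equal number. Standard beta subunits lay between PSMB2 and PSMB4, at 30.6 and 107 CPM per kb in ERRg and at 62.4 and 273 CPM per kb in GFP, while the inducible PSMB10 was at 1.47 CPM per kb in ERRg and 2.53 CPM per kb in GFP. In the alpha ring it ran between PSMA2 and PSMA7, at 1.61 and 81.7 CPM per kb in ERRg and at 0.861 and 183 CPM per kb in GFP. The ATPases lay between PSMC6 and PSMC3, at 9.84 and 50.04 CPM per kb in ERRg and at 6.33 and 122 CPM per kb in GFP. PSMD6 was the lowest non-ATPase and PSMD2 the highest, at 12.3 and 67.7 CPM per kb in ERRg and at 12.6 and 142 CPM per kb in GFP. The genes with the highest levels in GFP (PSMB4, PSMA7, PSMB5, PSMB7 and PSMD2) were all lower in ERRg under TMM, as were 28 of the 42 tested members. They were picked on the level in GFP, which is itself a side of this contrast. With the offsets PSMA7 was not called. Lengths are the union of annotated exons, so a gene with many unused exons reads low on this scale. So may PSMA1, PSMA2, PSMA6, PSMB10 and PSMD9, which share exon bases with other coding genes on the same strand.

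**Figure D4:**
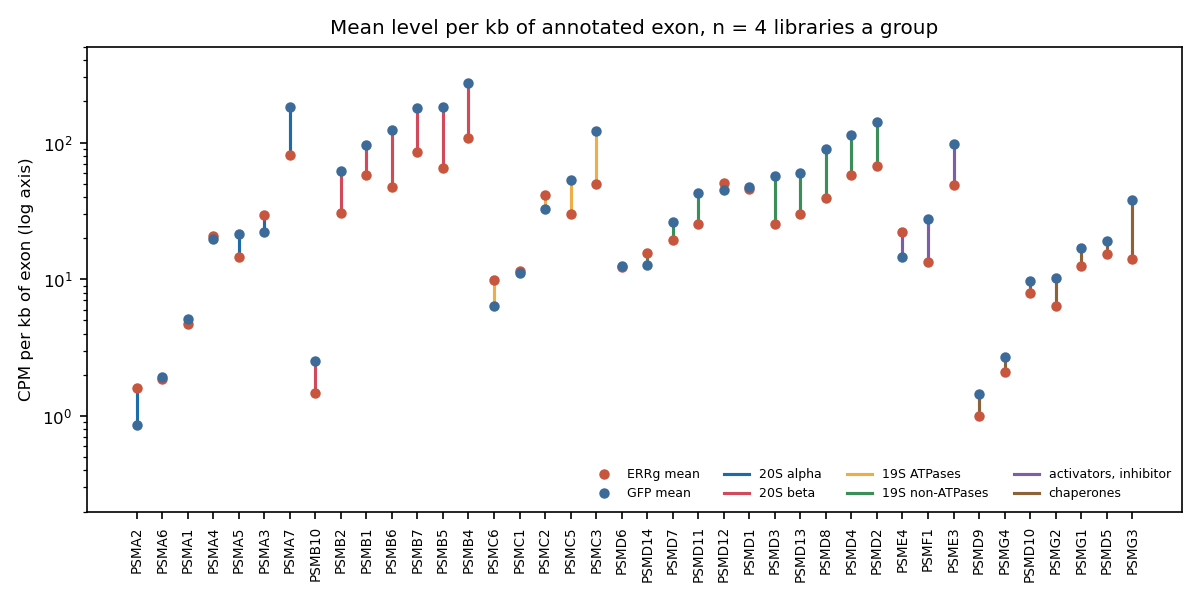
Mean CPM per kb of annotated exon (log axis) of the 40 tested genes of the complex and its partners by class, ERRg and GFP means joined by a line. Lines are long in the beta ring, where PSMB4 is at 107 in ERRg and 273 in GFP, and short for PSMD1, PSMD6 and PSMC1.

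Fold change and GC content of the longest annotated transcript ran in opposite directions across the 42 members (Pearson's r = -0.74, Spearman's rho = -0.76, given as a description of genes that share the same 8 libraries). Over the 13426 coding genes the Spearman's rho was -0.70. Of 19 members at or above the coding median of 48.0% GC, 17 were lower and 0 higher. Of 23 members below it, 11 were lower and 6 higher. Of coding genes at or above that median, 78.0% were lower and 7.14% higher. Of coding genes below it, 23.2% were lower and 50.8% higher. Transcript length gave a Spearman's rho of 0.52 over the members and 0.32 over coding genes, and gene span 0.40 and 0.42. The subunits with higher calls thus all lay below the coding median, where 11 members were nevertheless lower, among them PSMA5 at 37.2% GC and PSMB1 at 40.7% GC. The part of GC content in each call was not tested beyond the fits with offsets.

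**Figure D5:**
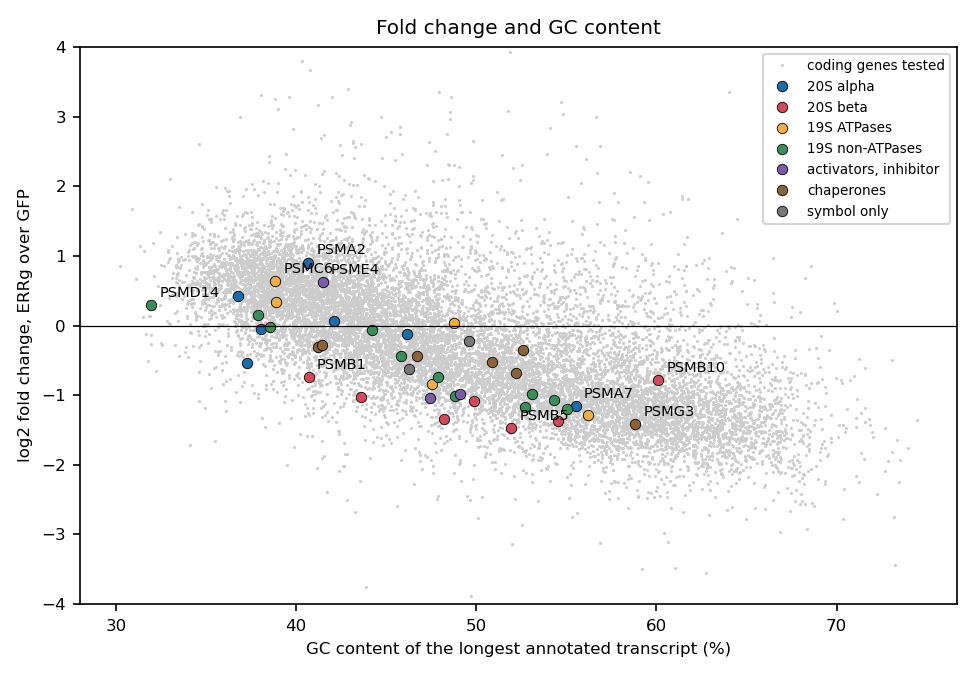
Log2 fold change (ERRg over GFP, TMM) against GC content of the longest annotated transcript, with 13426 coding genes in grey and the 42 members coloured by class; 12 coding genes beyond a log2 fold change of 4 in either direction are not drawn. Members run from PSMD14 at 32.0% GC and 0.29 to PSMB10 at 60.1% GC and -0.79, and PSMB1 and PSMB5 lie low for their GC content.

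Genes of the wider pathway are read here against the coding genes given before (under TMM 50.6% lower and 29% higher, with the offsets 41.5% lower and 30.4% higher). Partners of the complex without a PSM symbol were divided, with 4 higher and 4 lower of 11 under TMM, and 3 higher and 5 lower with the offsets. ADRM1, a ubiquitin receptor of the cap, had 22.3, 20.9, 31.7 and 27.4 CPM in ERRg, against 69.97, 85.3, 59.7 and 66.9 CPM in GFP. It was the lowest of the 11 (log2 fold change -1.46, SE 0.13, edgeR adjusted p = 2.38e-09), yet at -0.08 and not called with the offsets. With the GC offset alone ADRM1 was called lower (-0.22, edgeR adjusted p = 0.00316). POMP, the maturation factor of the core, had 140.2, 129, 113 and 119 CPM in ERRg and 144, 162, 143 and 171 CPM in GFP. It was lower without overlap (log2 fold change -0.31, SE 0.09, edgeR adjusted p = 0.00578), and at -0.75 with the offsets. SEM1, the smallest lid subunit, was at 0.14 (SE 0.09, edgeR adjusted p = 0.185) with overlapping groups and lower at -0.64 with the offsets. UCHL5, a deubiquitinase of the cap, was higher at 0.57 (SE 0.11, edgeR adjusted p = 0.000153) and not called with the offsets (-0.03, edgeR adjusted p = 0.644).

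Along the NFE2L1 axis, 3 of 11 genes were higher and 7 lower under TMM, and 5 higher and 5 lower with the offsets. NFE2L1 itself had 401, 398, 465 and 447 CPM in ERRg, against 569, 610.4, 594 and 554 CPM in GFP. Its ERRg libraries were all lower (log2 fold change -0.44, SE 0.09, edgeR adjusted p = 0.000132), but with the offsets it was higher (0.40, edgeR adjusted p = 8.83e-07), so its direction differed between the fits. DDI2, the protease that activates NFE2L1, had 60.1, 61.8, 52.6 and 57.6 CPM in ERRg and 26.5, 28.6, 30.0 and 28.6 CPM in GFP. It was higher without overlap, and called in both fits (log2 fold change 1.03, SE 0.09, edgeR adjusted p = 2.55e-09, and 0.70 with the offsets). VCP, the segregase that extracts NFE2L1 from the membrane, was lower under TMM at -1.05 (SE 0.10, edgeR adjusted p = 7.04e-09). KEAP1, the adaptor that directs the related factor NFE2L2 to degradation, was lower at -1.53 (SE 0.12, edgeR adjusted p = 5.88e-10). With the offsets VCP and KEAP1 were also called lower, at -0.44 and -0.47.

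Upstream and downstream of the particle, 5 of 6 ubiquitin genes and E1 enzymes were lower and 1 higher under TMM, and 5 were lower and 0 higher with the offsets. UBB, a polyubiquitin gene, had 75.4, 74.7, 97.8 and 86.4 CPM in ERRg, against 265, 348, 268 and 266 CPM in GFP. The ERRg libraries were all under the GFP range, at a log2 fold change of -1.78 (SE 0.11, edgeR adjusted p = 8.31e-11) and -1.01 with the offsets. UBA6, the second E1 enzyme, was the gene that was higher (0.69, SE 0.10, edgeR adjusted p = 4.40e-06), and it was not called with the offsets. Of 11 shuttles and VCP cofactors, which carry ubiquitinated proteins to the cap, 10 were lower and 0 higher under TMM, and 11 lower with the offsets, where the shares of coding genes lower were 50.6% and 41.5%. UBXN1, a VCP cofactor, was lower at -1.22 (SE 0.11, edgeR adjusted p = 2.37e-09). Of 12 antigen presentation genes, which use peptides from the proteasome, 7 were tested. Under TMM 1 was higher, 3 were lower and 3 not called, and with the offsets 1 was higher, 4 lower and 2 not called. Of those lower under TMM, IRF1, an interferon-response transcription factor, was at -1.44 (SE 0.17, edgeR adjusted p = 2.50e-07). B2M, the light chain of class I molecules, was lower at -0.59 (SE 0.09, edgeR adjusted p = 1.04e-05). TAP1 and TAP2, neighbours of PSMB8 and PSMB9 on chromosome 6, were listed at 0 as these were.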

How the data were processed

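The authors deposited raw counts of reads per gene for all 8 libraries as a single table of unnormalised values. The submitters' processing notes name STAR 2.7.8a, HTSeq 0.11.3, Trim Galore 0.6.6, DESeq2 and CASAVA, and the build GRCh38. Per the labels' protocols, RNA was ribosomal RNA-depleted and libraries were directional. Which strand setting and annotation the counting used is not given in the sources used here. Altogether 5 summary lines (reads outside exons, ambiguous, aligned repeatedly and so on) were kept out of library sizes and tests. Ambiguous reads were 5.44% ± 0.415 of reads in ERRg, against 12.1% ± 1.46 in GFP, and repeatedly aligned reads 6.41% ± 0.449 in ERRg, against 11.9% ± 1.32 in GFP (SD over 4 libraries).

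Counts of 21993 genes, of 41858 with a read, passed filterByExpr and were compared with edgeR 4.0.16 in R 4.3.3 (quasi-likelihood test, TMM, group as the single term, two-sided, Benjamini-Hochberg adjusted p under 0.05 over all genes tested). Standard errors were derived from the fold change and its F statistic. The second fit used coding genes with per-library splines (5 degrees of freedom each) of GC content, transcript length and span as offsets. Symbols came from a name table, which holds 60463 of the identifiers. Positions, types, lengths and GC content came from GENCODE 29, which holds 58444. CPM per kb uses the union of annotated exons. The test was checked on simulated counts.

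Named members were the catalytic and inducible beta subunits, in each class the 2 with the smallest p and those with the highest and lowest fold change, and those that changed direction with the offsets; other members are given by their fold changes. PSMA1, PSMA3, PSMA4, PSMA6, PSMC1, PSMC2 and the non-ATPases not called were named so as to account for each member. The members and lists were chosen with earlier results of these data known. Some genes of the pathway lists are not reported here. Alternatives were DESeq2 1.42.0 (size factors and Wald test), limma 3.58.1 (voom), other scalings and filters, a fit of coding genes, a replicate block, libraries left out, a fold change threshold and a stricter p. Leaving out ERRg replicates 1 and 2, or 3 and 4, and the GC offset alone were chosen after seeing the data.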

Additional observations from a re-analysis of the deposited data

Results flagged for a closer look

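Dixon's criterion sets the gap between a library and its nearest neighbour against the range of the group of 4. By it, single libraries far from the other 3 were found in 10 of 84 groups of tested members. Chance gives about 1 in 20 for independent groups, but these groups share the same 8 libraries and are not independent. GFP replicate 2 was the library in 8 of the 10. It was the highest GFP library at 325 CPM of PSMD13, 869 CPM of PSMD2, 686 CPM of PSMB4, 383 CPM of PSMB5, 213 CPM of PSMB6, 364 CPM of PSMB7 and 87.2 CPM of PSMG3, and the lowest at 3.48 CPM of PSMA2. These genes stayed called in the same direction without it. In ERRg, replicate 1 was apart at 71.6 CPM of PSMD5 and replicate 3 at 23.2 CPM of PSMG4.

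Rows with a PSM symbol that are not protein-coding were left out of the list. Of 51 such rows 12 were tested, and 9 were higher in ERRg, 1 lower (PSMG3-AS1) and 2 not called. Of the 8560 tested genes outside the annotated coding set, 54.2% were higher and 12.9% lower. The pseudogenes PSMA1P1, PSMD10P1, PSMA2P2, PSME2P4, PSMA2P1 and PSMC1P9 had log2 fold changes (ERRg over GFP) of 1.07, 0.73, 2.29, 0.93, 2.02 and 2.85. The antisense or divergent genes PSMD14-DT, PSMD6-AS2 and PSMA3-AS1 were at 1.43, 1.62 and 0.80. Of these 9, PSMA3-AS1 averaged 55.1 CPM in ERRg and 31.7 CPM in GFP, and PSMD10P1 7.62 CPM in ERRg and 4.59 CPM in GFP. The largest fold changes, of PSMC1P9, PSMA2P2 and PSMA2P1, rest on few reads. Their means were 0.760, 0.601 and 0.569 CPM in ERRg and 0.105, 0.120 and 0.137 CPM in GFP. PSMA1P1 and PSME2P4 were also under 1 CPM in both groups. Reads of pseudogenes and their parent genes may be shared, so these values are uncertain.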

How the results depend on the processing

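Direction depended mainly on scaling and offsets. The count of higher members was 12 with upper-quartile factors, 13 with library totals and 12 with coding genes alone, and testing for more than a log2 fold change of 1 left 0 higher and 6 lower (1692 and 2302 over all genes). All genes split into 11041 higher and 6045 lower under upper-quartile factors, and into 11791 and 5383 under library totals. Fits limited to 13426 coding genes called 5471 higher and 5320 lower without offsets, 4078 and 5572 with all offsets, 4280 and 5470 with the GC offset alone, and 3951 and 5407 with offsets and the replicate block. The members' median was -0.28, -0.18, -0.27, -0.26, -0.41 and -0.26 with upper-quartile factors, library totals, coding genes alone, all offsets, the GC offset alone, and offsets with the block, and -0.47 with a filter of 1 CPM in 4 libraries. The summed CPM ratio was 0.749 under upper-quartile factors and 0.804 under library totals.

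Leaving out 1 library gave 5 to 6 higher and 28 to 29 lower members, medians of -0.57 to -0.70, ratios of 0.596 to 0.624, and 7611 to 8518 higher and 7755 to 8247 lower genes. Same-numbered ERRg and GFP libraries did not deviate together (correlations of 0.0832, -0.143, -0.0688 and -0.0482), so the numbers were not taken to pair samples. The replicate block gave 6 higher and 27 lower members.

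Signs changed with upper-quartile factors, library totals and coding genes alone for PSMD5 (0.0028, 0.10 and 0.013), PSMD10 (0.022, 0.12 and 0.032), PSMA6 (0.25, 0.35 and 0.26), PSMD6 (0.28, 0.37 and 0.29), PSMD1 (0.25, 0.35 and 0.26), PSMA1 (0.19, 0.29 and 0.20) and PSMC3IP (0.083, 0.18 and 0.094), and with library totals for PSMG4 (0.047). They changed with all offsets, and with offsets and the block, for PSMD14 (-0.45 and -0.45), PSMC3IP (0.45 and 0.46), PSMC2 (-0.026 and -0.026), PSMG4 (0.13 and 0.13), PSMD12 (-0.31 and -0.30) and PSMB10 (0.43 and 0.40). With the GC offset alone they changed for PSMC3IP (0.16), PSMA4 (-0.19), PSMA3 (-0.14), PSMD14 (-0.37), PSMC2 (-0.14), PSMG4 (0.24), PSMD12 (-0.38) and PSMB10 (0.24). With the filter of 1 CPM in 4 libraries they changed for PSMA6 (0.059), PSMD6 (0.086) and PSMD1 (0.055). These were called neither under TMM nor with that filter. The signs of PSMC1, PSMA4, PSMA6, PSMD6 and PSMD12 changed without the low-count filter or when libraries were left out. They too were called neither under TMM nor in the fits where these signs changed. The cause was not tested. Members with at most 1 read in any library could not be compared, and why their counts are so low was not tested.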
